A study of Mus musculus with 5 samples.

Results

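Macrophages are phagocytes that live in every tissue, and in bone marrow they clear dying cells, nurse maturing red cells and share their progenitors with bone-resorbing osteoclasts. They depend on signalling through the CSF1 receptor, and they are recognised by a set of surface receptors, lysosomal proteins and secreted complement C1q. The genes followed here are 9 such macrophage genes, taken by name among the 30046 features of the counts: *Csf1r*, *Adgre1*, *Mrc1* and *Cd14*, which encode receptors, *Cd68* and *Lyz2*, which encode a lysosomal membrane protein and a secreted enzyme, and *C1qa*, *C1qb* and *C1qc*, which encode the chains of C1q. Of these, 8 were among the 10088 genes tested, and *Mrc1* was not.

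The libraries did not come from sorted macrophages. Each is bulk RNA of GFP-high, tdTomato-positive cells taken by FACS from femurs at P21. All mice carried GFP at 1 *Cxcl12* allele, Cxcl12(GFP/+), and the Cre reporter R26R(tdTomato/+). The 3 libraries of Dlx5-E12.5 cells had the driver Dlx5(CreER/+), active in the fetal perichondrium, and the 2 libraries of Fgfr3-E12.5 cells had Fgfr3-iCreER, active in chondrocytes. Tamoxifen was given to both at E12.5, so that tdTomato marks the descendants of cells that used the driver around then. The labels call both groups CXCL12-abundant reticular (CAR) cells, a stromal cell type, and number the Fgfr3-E12.5 libraries 2 and 3. Littermates of 1 genotype were pooled before sorting. The account of this sort names GFP and tdTomato. The study's flow cytometry on a separate analyser stained for CD45, Ter119 and CD31 of blood and endothelial cells, and whether that gate was used in the sort is not given in the sources used here. Post-sort purity was not determined, per the study. The question addressed here is how much RNA of macrophage genes each lineage's sort held.

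Total counts lay between 22035650 and 32563758 in Dlx5-E12.5 libraries and between 56355203 and 58166285 in Fgfr3-E12.5 libraries. Levels are given as CPM (counts divided by the TMM-scaled library size and given per 1000000), and 3 counts correspond to 0.0473 to 0.141 CPM. The study's methods describe paired-end reads for the Dlx5-E12.5 libraries and shorter single-end reads from another sequencer for the Fgfr3-E12.5 libraries, whereas the series' labels name a single sequencer for all libraries. If the methods hold, lineage and sequencing cannot be told apart. *Cxcl12* measured 21252 to 22405 CPM in Dlx5-E12.5 and 5802 to 8068 CPM in Fgfr3-E12.5 cells. The sort was on GFP from this gene, so these levels are no separate check of the stromal label. A difference in bulk RNA cannot separate more cells of a type from more RNA per cell.

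The macrophage transcription factor PU.1 binds purine-rich sites with the core AGGAAG, and this core was looked for on both strands of the promoters. RefSeq promoter windows on GRCm38.p6, from 250 bases before to 50 bases after the start, were used for 5 of the 9 genes, and 4 of the 5 hold the core, against 35.4% of 32851 promoters of that length. Below are *Lyz2* (chr10:117282223-117282522, minus strand) and its neighbour and near copy *Lyz1* (chr10:117292819-117293118, minus strand), shown because the genes differed so much in level. Capitals mark the bases that differ between them.
Lyz2: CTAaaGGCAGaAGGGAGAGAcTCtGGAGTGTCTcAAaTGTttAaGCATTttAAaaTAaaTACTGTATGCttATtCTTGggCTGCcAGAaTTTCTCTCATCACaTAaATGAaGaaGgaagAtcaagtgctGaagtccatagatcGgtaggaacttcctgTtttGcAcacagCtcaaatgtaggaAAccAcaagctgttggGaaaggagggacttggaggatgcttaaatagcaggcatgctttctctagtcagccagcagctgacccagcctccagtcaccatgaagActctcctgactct
Lyz1: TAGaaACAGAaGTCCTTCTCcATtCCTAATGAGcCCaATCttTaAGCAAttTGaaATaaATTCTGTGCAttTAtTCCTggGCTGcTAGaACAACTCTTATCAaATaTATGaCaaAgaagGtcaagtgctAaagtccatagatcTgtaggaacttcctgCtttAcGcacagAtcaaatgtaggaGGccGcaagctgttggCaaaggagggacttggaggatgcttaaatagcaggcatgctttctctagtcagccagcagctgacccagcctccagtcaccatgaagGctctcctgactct
They differ at 99 of 300 positions and are 67.0% identical, but only 6 of the differences fall in the last 130 bases, around the start. The core begins at -137 on the plus strand and at -99 on the minus strand of *Lyz2*, and at -99 on the minus strand alone in *Lyz1*, with the start counted as 1.

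The next windows belong to *C1qb* (chr4:136886151-136886450, minus strand), *C1qc* (chr4:136892865-136893164, minus strand) and *Mrc1* (chr2:14229164-14229463, plus strand), shown because both C1q genes were called higher in Fgfr3-E12.5 cells and *Mrc1* measured lower there. Capitals mark the core.
C1qb: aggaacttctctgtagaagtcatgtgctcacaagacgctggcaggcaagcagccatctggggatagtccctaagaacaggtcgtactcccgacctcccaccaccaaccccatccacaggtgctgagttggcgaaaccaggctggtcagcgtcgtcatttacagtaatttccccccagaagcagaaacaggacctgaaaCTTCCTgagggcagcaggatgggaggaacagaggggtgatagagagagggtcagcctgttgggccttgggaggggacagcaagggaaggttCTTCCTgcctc
C1qc: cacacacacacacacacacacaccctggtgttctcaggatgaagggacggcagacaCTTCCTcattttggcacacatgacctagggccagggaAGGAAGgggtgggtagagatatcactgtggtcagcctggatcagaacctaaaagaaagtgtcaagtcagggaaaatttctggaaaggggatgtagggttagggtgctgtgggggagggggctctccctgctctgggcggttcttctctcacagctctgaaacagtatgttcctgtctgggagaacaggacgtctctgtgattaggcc
Mrc1: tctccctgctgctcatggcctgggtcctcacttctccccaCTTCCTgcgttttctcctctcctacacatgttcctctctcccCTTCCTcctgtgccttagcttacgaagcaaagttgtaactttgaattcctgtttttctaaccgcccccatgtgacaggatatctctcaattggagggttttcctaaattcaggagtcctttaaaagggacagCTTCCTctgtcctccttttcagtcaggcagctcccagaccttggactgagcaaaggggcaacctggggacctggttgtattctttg
The core stands in *C1qb* at -52 and 40 and in *Mrc1* at -210, -168 and -36, always on the minus strand, and in *C1qc* at -194 on the minus and at -157 on the plus strand. The letters were thus present in *Mrc1*, whose difference did not pass the test, as well as in called genes, and the *Cd68* window held none. A match is a run of letters and not evidence of binding. No other motif was searched.

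Most of the macrophage genes tested were higher in Fgfr3-E12.5 cells. Of the 8, 6 (*Csf1r*, *Cd68*, *Lyz2*, *Adgre1*, *C1qb* and *C1qc*) were called higher there, where 16.4% of all tested genes were, and 0 were called higher in Dlx5-E12.5 cells, where 13.1% of all tested genes were. A call required an adjusted p-value under 0.05 (edgeR's quasi-likelihood test) and a log2 fold change beyond 1 in either direction. The median log2 fold change of the 8 was 1.12, beside 0.01 over all tested genes. In all 8, both Fgfr3-E12.5 libraries lay above all 3 Dlx5-E12.5 libraries, as in 34.8% of all tested genes. The expression filter used CPM on total counts, without TMM scaling. On that scale *Cd68* passed through the Fgfr3-E12.5 libraries alone. *Adgre1* and *C1qa* reached the level of the filter in 1 Dlx5-E12.5 library and so needed a Fgfr3-E12.5 library to pass. The counts and the median here are therefore a description. When Fgfr3-E12.5 replicate 3 was left out, 2 genes were called, *Csf1r* and *Lyz2*, or 3, with *Cd68*, when the genes of the 5-library filter were kept. With library sizes in place of TMM, 7 were called and the split of all calls moved from 1653 higher in Fgfr3-E12.5 and 1318 higher in Dlx5-E12.5 cells to 1985 and 1009, as the median of all genes shifted to 0.22.

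**Figure D1:**
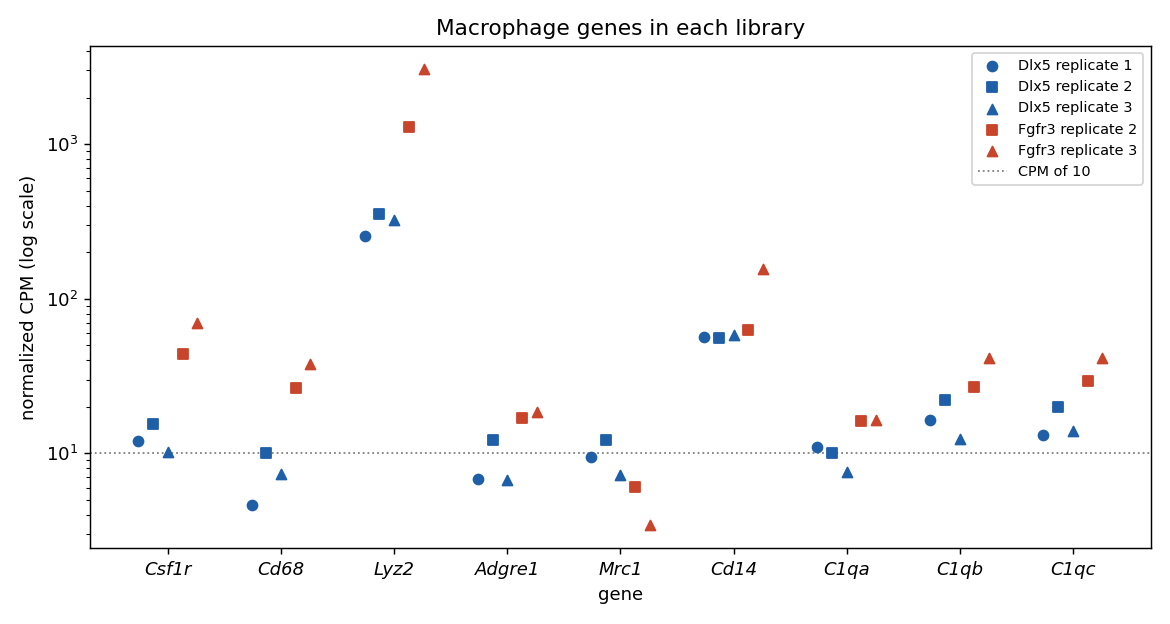
Normalized CPM (log axis) of the 9 macrophage genes in each library, with 3 Dlx5-E12.5 libraries in blue and 2 Fgfr3-E12.5 libraries in red. The dotted line lies at 10 CPM, and the filter at 10 used CPM on total counts, without TMM scaling. *Lyz2* spans the widest range, from 256 to 3070 CPM, and *Mrc1* is the gene whose Fgfr3-E12.5 libraries lie below the Dlx5-E12.5 ones.

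*Csf1r*, the receptor for CSF1 and IL-34 on which macrophages and osteoclasts depend, lies at chr18:61100598-61132149 on the plus strand of GRCm38 and has 24 merged exons. It measured 12.04, 15.40 and 10.26 CPM in Dlx5-E12.5 libraries and 43.74 and 70.08 CPM in Fgfr3-E12.5 libraries. The lowest Fgfr3-E12.5 value was far above the highest Dlx5-E12.5 value, and the log2 fold change was 2.18 ± 0.26 (SE; edgeR adjusted p = 0.000749). Exons of *Hmgxb3*, on the opposite strand, overlap it and share 14.3% of its 50-base windows, and the strand setting of the counting is not given in the sources used here. *Hmgxb3* itself measured 37.35, 46.62 and 42.99 against 38.00 and 45.06 CPM, which overlap.

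*Adgre1* encodes F4/80, the adhesion receptor most used to stain mouse macrophages, and lies at chr17:57358691-57483527 on the plus strand. Its levels were 6.82, 12.20 and 6.68 CPM in Dlx5-E12.5 and 17.07 and 18.59 CPM in Fgfr3-E12.5 libraries. Dlx5-E12.5 replicate 2 came closest to the other group, and the Fgfr3-E12.5 libraries were nearly equal. The log2 fold change was 1.06 ± 0.31 (SE; edgeR adjusted p = 0.0273). Leaving out Dlx5-E12.5 replicate 1 or 3, or either Fgfr3-E12.5 library, ended the call, with adjusted p-values from 0.0527 to 0.0874. Scaled to pan-leukocyte genes, the groups overlapped, and the log2 ratio of mean levels turned to -0.89 (no test).

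*Cd14*, the co-receptor that hands bacterial lipopolysaccharide to TLR4, is a single-exon gene at chr18:36725067-36726798 on the minus strand. The Dlx5-E12.5 libraries were tightly grouped at 56.34, 55.80 and 58.54 CPM, whereas the Fgfr3-E12.5 libraries stood apart from each other at 62.64 and 156.51 CPM. Replicate 2 of the Fgfr3-E12.5 cells was barely above the Dlx5-E12.5 range, and the log2 fold change of 0.95 ± 0.34 (SE; edgeR adjusted p = 0.0543) was not called. Without that replicate it was 1.53 and called, and without replicate 3 it was 0.20. Scaled to pan-leukocyte genes, the direction turned, with a log2 ratio of mean levels of -1.23 (no test).

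*Mrc1*, the mannose receptor CD206 of tissue-resident macrophages and sinusoidal endothelium, lies at chr2:14229392-14332057 on the plus strand. It was the exception among the 9 genes, at 9.46, 12.15 and 7.28 CPM in Dlx5-E12.5 and 6.03 and 3.42 CPM in Fgfr3-E12.5 libraries. The groups did not overlap, with Dlx5-E12.5 cells above. It reached a CPM of 10 in 1 library only and was tested with a lower filter, a CPM of 1 or more in 2 or more libraries, which 13225 genes passed and of which 16.6% were called higher in Fgfr3-E12.5 and 12.9% in Dlx5-E12.5 cells. There its log2 fold change was -1.05, which did not pass (edgeR adjusted p = 0.0545).

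*Cd68*, a heavily glycosylated protein of the lysosomal membrane, lies at chr11:69664213-69666153 on the minus strand. It measured 4.66, 10.03 and 7.40 CPM in Dlx5-E12.5 and 26.66 and 38.06 CPM in Fgfr3-E12.5 libraries. The groups did not overlap, and the lowest Fgfr3-E12.5 value was well above the highest Dlx5-E12.5 value. The log2 fold change was 2.14 ± 0.34 (SE; edgeR adjusted p = 0.00227).

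*Lyz2*, lysozyme M, an enzyme that cleaves bacterial cell walls and that neutrophils and monocytes make as well as macrophages, lies at chr10:117277331-117282321 on the minus strand. Its counts were 7861, 7485 and 8122 in Dlx5-E12.5 and 79519 and 194600 in Fgfr3-E12.5 libraries, or 256.4, 352.5 and 323.0 against 1292 and 3070 CPM. It had the largest change of the 8 tested genes, with a log2 fold change of 2.81 ± 0.36 (SE; edgeR adjusted p = 0.000941), and Fgfr3-E12.5 replicate 3 held 2.38 times the level of replicate 2. Without replicate 3, with the filter rerun on the other libraries, the log2 fold change was 2.12. Of its 50-base windows, 15.4% also occur in *Lyz1*, the lysozyme of intestinal Paneth cells, which had only 29, 23, 23, 34 and 68 counts.

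The C1q genes encode the A, B and C chains that assemble into the recognition molecule of the classical complement pathway, and macrophages are a main source of it. They sit side by side on the minus strand of chromosome 4, *C1qb* at chr4:136880129-136886187, *C1qc* at chr4:136889804-136893065 and *C1qa* at chr4:136895917-136898803. *C1qc* measured 13.21, 19.87 and 14.04 CPM in Dlx5-E12.5 and 29.43 and 41.37 CPM in Fgfr3-E12.5 libraries, with a log2 fold change of 1.17 ± 0.25 (SE; edgeR adjusted p = 0.00765). *C1qb* measured 16.47, 22.09 and 12.45 against 26.98 and 41.62 CPM, with a log2 fold change of 1.01 ± 0.29 (SE; edgeR adjusted p = 0.0254).

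For *C1qa* the values were 10.99, 10.08 and 7.64 against 16.19 and 16.44 CPM, and its log2 fold change of 0.77 ± 0.23 (SE) passed the p-value threshold (edgeR adjusted p = 0.0313) but not the fold threshold. All 3 chains were thus higher in both Fgfr3-E12.5 libraries with no overlap, by less than *Csf1r*, *Cd68* or *Lyz2*, a direction that turned when levels were scaled to leukocyte genes, as given further on. Without Fgfr3-E12.5 replicate 3 neither *C1qb* (log2 fold change 0.73) nor *C1qc* (0.97) was called, and *C1qb* also lost its call without Dlx5-E12.5 replicate 1 or 3.

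Per kilobase of exon, the order of levels was nearly the same in both lineages. In Dlx5-E12.5 cells *Lyz2* led with 236 ± 37.4 CPM per kb (SD, n = 3), followed by *Cd14* at 32.8 ± 0.839 and *C1qb* at 15.6 ± 4.45. Below them, *C1qa* (9.20 ± 1.67), *C1qc* (8.13 ± 1.88) and *Cd68* (5.86 ± 2.13) had overlapping libraries, as did *Adgre1* (2.65 ± 0.971), *Csf1r* (2.18 ± 0.452) and *Mrc1* (1.51 ± 0.383). In Fgfr3-E12.5 cells *Lyz2* stood at 1658 ± 955 CPM per kb (SD, n = 2) and *Cd14* at 63.3 ± 38.3. There *Cd68* (25.7 ± 6.41) rose past *C1qc* (18.3 ± 4.37) and *C1qa* (15.7 ± 0.171), although its libraries overlapped those of *C1qc*. *Csf1r* (9.86 ± 3.23) and *Adgre1* (5.51 ± 0.332) changed places, and *Mrc1* stayed last at 0.742 ± 0.289.

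Genes that act with CSF1R split by the side of the signal they serve. Both ligands lay higher in every Dlx5-E12.5 library, *Il34* at 158.2, 173.9 and 208.2 against 28.75 and 11.00 CPM (log2 fold change -3.18, edgeR adjusted p = 0.0011, and -4.03 without Fgfr3-E12.5 replicate 2). *Csf1* measured 1185, 988 and 1041 against 601 and 630 CPM, a log2 fold change of -0.80 that passed the p-value (edgeR adjusted p = 0.00615) and not the fold threshold. Signalling genes of myeloid cells downstream of the receptor and of its partners went the other way, and 10 of 12 tested genes of this list were called higher in Fgfr3-E12.5 cells. Among them were *Vav1*, an exchange factor for Rac (log2 fold change 3.11), the Src-family kinase *Fgr* (2.70), and the adaptor *Tyrobp* (2.08). *Vav1*, *Fgr* and *Pik3cg* passed the filter through the Fgfr3-E12.5 libraries alone, as *Cd68* did, so this count is a description. Without Fgfr3-E12.5 replicate 3, *Fgr* (1.42) and *Syk* (1.11) lost their calls, and *Tyrobp* (1.31) kept its call at a smaller size. *Syk* also lost its call without Dlx5-E12.5 replicate 2, and *Fgr* stood at 3.37 without Fgfr3-E12.5 replicate 2. Most of these kinases and adaptors also work in neutrophils.

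Transcription factors of macrophages did not move together. *Spi1*, which encodes PU.1, measured 15.50, 19.50 and 18.57 against 48.43 and 172.6 CPM (log2 fold change 2.63, edgeR adjusted p = 0.00376), with 1.44 without Fgfr3-E12.5 replicate 3 and 3.27 without replicate 2. *Irf5* (1.21) and *Irf8* (1.01) were also called higher, the latter not without Fgfr3-E12.5 replicate 3 or Dlx5-E12.5 replicate 2 or 3. *Maf*, which helps hold mature macrophages in their state, had overlapping groups, at 79.83, 112.3 and 95.33 against 91.44 and 48.85 CPM and a log2 fold change of -0.45. The lipid sensor *Nr1h3* stood at 0.02, and the heme-regulated repressor *Bach1* was called higher in Dlx5-E12.5 cells at -1.64. In all, 3 of 7 tested factors were called higher in Fgfr3-E12.5 and 1 in Dlx5-E12.5 cells, with a median of 0.02. This median depended on the filter. Under the lower filter 9 were tested, 4 were called higher in Fgfr3-E12.5 and 1 in Dlx5-E12.5 cells, and the median was 0.98. *Spic* (1.16) and *Tfec* (2.84) were called higher in Fgfr3-E12.5 cells there, and *Irf8* (0.98) was not. *Tfec* needed a Fgfr3-E12.5 library to pass even this filter.

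**Figure D2:**
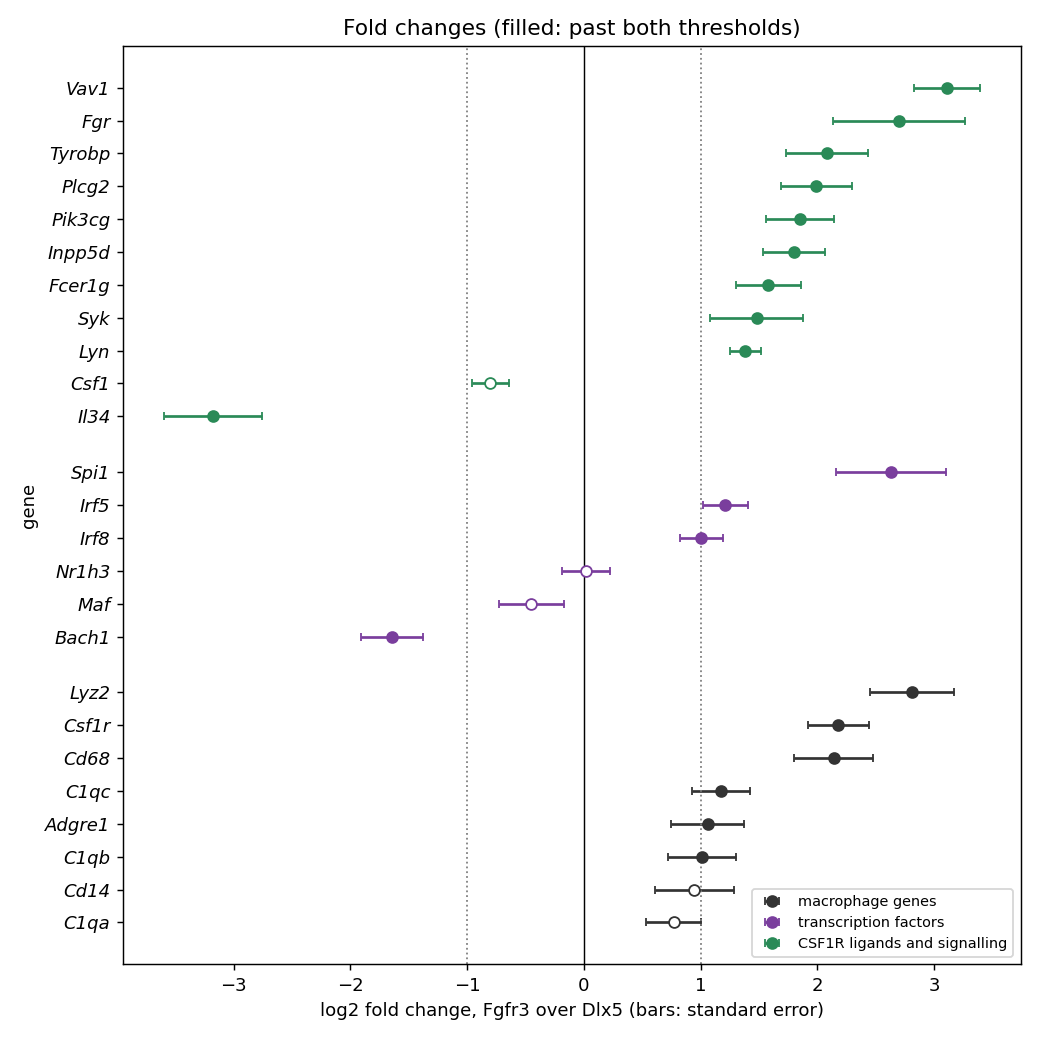
Log2 fold change (Fgfr3-E12.5 over Dlx5-E12.5, bars give the standard error) of the tested macrophage genes and of macrophage transcription factors and CSF1R ligands and signalling genes reported here, with filled points past both thresholds and dotted lines at -1 and 1. The macrophage genes all lie right of 0, from 0.77 for *C1qa* to 2.81 for *Lyz2*, while *Il34* lies at -3.18 and *Bach1* at -1.64.

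Of 21 other macrophage surface and signalling genes in the counts, 7 were tested and 5 were called higher in Fgfr3-E12.5 cells, and 0 in Dlx5-E12.5 cells. These were *Itgam* (log2 fold change 2.37), *Tyrobp*, *Fcgr3* (1.71), *Sirpa* (1.64) and *Fcer1g* (1.58), genes of CD11b, Fc receptors and the "don't eat me" receptor that other myeloid cells also use. Without Fgfr3-E12.5 replicate 3 *Fcgr3* lost its call (0.79), and *Itgam* kept it at 1.78. *Mertk*, a receptor for dying cells, measured 10.63, 21.19 and 18.93 against 20.40 and 16.83 CPM, and *Mpeg1*, a pore-forming phagosome protein, 16.80, 20.30 and 19.45 against 18.97 and 33.54 CPM, and both overlapped.

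A few genes of this list, named after their values were seen, had low counts. *Siglec1*, which encodes CD169, had 3, 23 and 2 counts in Dlx5-E12.5 and 8 and 7 counts in Fgfr3-E12.5 libraries, *Folr2* had 9, 0 and 1 against 4 and 27, and *Timd4* 51, 28 and 37 against 167 and 116. Under the lower filter, 10 of 19 genes of the list were called higher in Fgfr3-E12.5 and 0 in Dlx5-E12.5 cells. Those not called were *Mertk*, *Mpeg1*, *Fcgr1* (log2 fold change 1.74), *Fcgr4* (2.39), *Cd163* (0.62), *Timd4* (0.59), *Aif1* (1.06), *Hpgds* (0.67) and *Cd5l* (-3.15). The scavenger receptor *Msr1*, the lipid receptor *Trem2* and the fractalkine receptor *Cx3cr1* needed a Fgfr3-E12.5 library to pass even this filter, so the count is a description. Their counts were 16, 11 and 30 against 468 and 519 for *Msr1*, 11, 8 and 3 against 79 and 229 for *Trem2*, and 58, 19 and 25 against 267 and 810 for *Cx3cr1*.

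Genes of functions that macrophages carry out were not uniformly higher. Over all tested genes, 16.4% were called higher in Fgfr3-E12.5 and 13.1% in Dlx5-E12.5 cells. Beside these shares, the counts of the short lists below are a description. Of 9 tested genes for the uptake of dying cells, 2 were called higher in Fgfr3-E12.5 cells, the Rac activator *Dock2* (log2 fold change 1.66) and the scavenger receptor *Cd36* (1.04, lost without Dlx5-E12.5 replicate 1 or Fgfr3-E12.5 replicate 2). The bridging proteins *Gas6* (-0.87), *Pros1* (-0.05) and *Mfge8* (-0.16) were not called. Their levels lay far above that of *Csf1r*, with *Gas6* at 5063, 3660 and 3407 against 2161 and 2255 CPM. Which cells of the sort made this RNA was not tested. Of 8 tested genes that act with CD14 in sensing lipopolysaccharide 0 were called, with *Lbp* at 0.40, *Myd88* at -0.19 and *Tlr2* at -0.15. *Tlr4* itself measured 26.23, 41.30 and 32.85 against 32.62 and 22.66 CPM. Of 5 tested genes of iron-recycling and erythroblastic island macrophages, *Vcam1* alone was called, higher in Dlx5-E12.5 cells (-2.04, and -2.64 without Fgfr3-E12.5 replicate 2), and it is also abundant in CAR cells. The iron exporter *Slc40a1* (-0.35), *Itgav* (-0.29) and *Maea* (-0.09) were not called.

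The partners of C1q diverged from it. The proteases *C1ra* (579.9, 546.7 and 644.8 against 146.7 and 112.9 CPM, log2 fold change -2.19, edgeR adjusted p = 0.00019) and *C1s1* (-1.91), which C1q carries in the C1 complex, were called higher in Dlx5-E12.5 cells. So were the C1 inhibitor *Serping1* (-1.91), *C4b* (-1.22), *C2* (-2.02) and *Cd93* (-1.16). Of these, *C2* lost its call when any library other than Dlx5-E12.5 replicate 1 was left out, and *Cd93* without Fgfr3-E12.5 replicate 3. The receptors *C5ar1* (2.66), *Itgam* and *Itgb2* (2.29) were higher in Fgfr3-E12.5 cells, which gave 3 calls in that direction and 6 in the other among 13 tested. Without Fgfr3-E12.5 replicate 3 *C5ar1* stood at 1.79 and *Itgb2* at 1.63, both still called. *Calr* (-0.25) and *C3* (0.87) were not called.

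Among the relatives of the 9 genes, *Mrc2*, the collagen-binding kin of *Mrc1*, measured 29.85, 30.23 and 48.24 against 65.97 and 109.3 CPM and was called higher in Fgfr3-E12.5 cells (1.28), as was *Ly75* (1.25), which passed the filter through the Fgfr3-E12.5 libraries alone, while *Pla2r1* was called higher in Dlx5-E12.5 cells (-1.06). Without Fgfr3-E12.5 replicate 3 these 3 calls were lost, and that of *Ly75* also without Dlx5-E12.5 replicate 3. *Lamp1*, a lysosomal membrane protein of the same family as *Cd68*, was called higher in Fgfr3-E12.5 cells (1.32) and *Lamp2* was not called (-0.41). *Adgre5*, which encodes CD97 of many leukocytes, stood at 35.20, 32.82 and 26.77 against 173.8 and 186.1 CPM (2.51, edgeR adjusted p = 6.4e-05), a larger log2 fold change than that of *Adgre1*.

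Markers of other blood cells moved with the macrophage genes, and their part in the result was not tested. Of 14 pan-leukocyte genes, 13 were called higher in Fgfr3-E12.5 cells, and their summed level was 524 to 699 CPM in Dlx5-E12.5 and 1666 and 3560 CPM in Fgfr3-E12.5 libraries. *Laptm5* (log2 fold change 2.39), *Lcp1* (2.42) and *Itgb2* were among them, and *Was* was not called (0.01). *Vav1* in this list, *Cebpe* among neutrophil, *Ccr2* among monocyte and *Igll1* among B cell genes passed the filter through the Fgfr3-E12.5 libraries alone, so these counts are descriptions. Neutrophil genes gave 13 calls of 14, with a sum of 2604 to 3247 against 7353 and 18156 CPM and with *Lcn2* (3.24), *Ltf* (2.92), *Mmp8* (2.82) and *Cebpe* (2.57) leading and *Ctsg* not called (1.37). Without Fgfr3-E12.5 replicate 3, 9 of the 13 pan-leukocyte and 8 of the 13 neutrophil calls held, with *Lcp1* at 1.67, *Lcn2* at 2.44, *Ltf* at 2.00, *Mmp8* at 2.13 and *Cebpe* at 1.64. The 9 macrophage genes summed to 386, 510 and 447 against 1521 and 3456 CPM, a ratio of group means of 5.56 that fell to 2.24 without *Lyz2*.

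Monocytes, the blood precursors of many macrophages, gave 4 calls higher in Fgfr3-E12.5 cells among 7 tested genes, *F13a1* (log2 fold change 2.66), *Chil3* (2.59), *Ccr2* (2.41, and 1.78 without Fgfr3-E12.5 replicate 3) and *Ly6c2* (1.18, lost without Fgfr3-E12.5 replicate 3), and 1 in the other direction, *Vcan* (-1.48). *Plac8* (0.09) and *Fn1* (0.83) were not called. The sum of the list was 564 to 783 against 1511 and 2234 CPM. Osteoclast genes gave 3 calls higher in Fgfr3-E12.5 cells among 6 tested, *Mmp9* (5.14), *Itgb3* (2.19) and *Acp5* (2.07), with *Ctsk* (-0.05), *Car2* (0.54) and *Nfatc1* (-0.10) not called and a sum of 736 to 964 against 3425 and 3735 CPM. The fusion genes *Dcstamp* and *Ocstamp* had 0 counts in all 3 Dlx5-E12.5 libraries. In Fgfr3-E12.5 cells they were at least 21.8-fold and 27.9-fold higher, against a floor of 3 counts per library.

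Lists of other cell types varied. Dendritic cell genes summed to 309, 127 and 148 against 224 and 346 CPM. Of 5 tested, 0 were called higher in Fgfr3-E12.5 cells, and *Zbtb46* (-1.48) was called higher in Dlx5-E12.5 cells. Without Dlx5-E12.5 replicate 1, which had the highest sum of the Dlx5-E12.5 libraries, 4 of the 5 were called higher in Fgfr3-E12.5 cells. Without Dlx5-E12.5 replicate 2 or 3 the number stayed at 0. B cell genes summed to 108 to 282 against 281 and 496 CPM with 3 of 7 called (1 of the 3 held without Fgfr3-E12.5 replicate 3), and T and NK cell genes to 9.43 to 24.6 against 36.0 and 75.1 CPM with 1 of 1 called, *Nkg7* (1.78, lost without Fgfr3-E12.5 replicate 3 or Dlx5-E12.5 replicate 2). For B cell genes Dlx5-E12.5 replicate 1 again had the highest Dlx5-E12.5 sum, at 282 CPM beside 116 and 108. Without it 7 of 7 were called higher in Fgfr3-E12.5 cells, and 1 and 2 without Dlx5-E12.5 replicates 2 and 3. Erythroid genes overlapped at 17850 to 36376 against 13928 and 20709 CPM, with *Hbb-bt* (-1.27) and *Hba-a1* (-1.18) called higher in Dlx5-E12.5 cells, the latter not without Dlx5-E12.5 replicate 1 or 3 or Fgfr3-E12.5 replicate 2. Endothelial genes overlapped at 28.9 to 44.8 against 37.8 and 45.4 CPM. Marrow stromal genes were lower in Fgfr3-E12.5 cells, at 33092 to 35071 against 13523 and 8903 CPM, with 6 of 11 called higher in Dlx5-E12.5 cells and *Foxc1* (2.82) in the other direction.

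**Figure D3:**
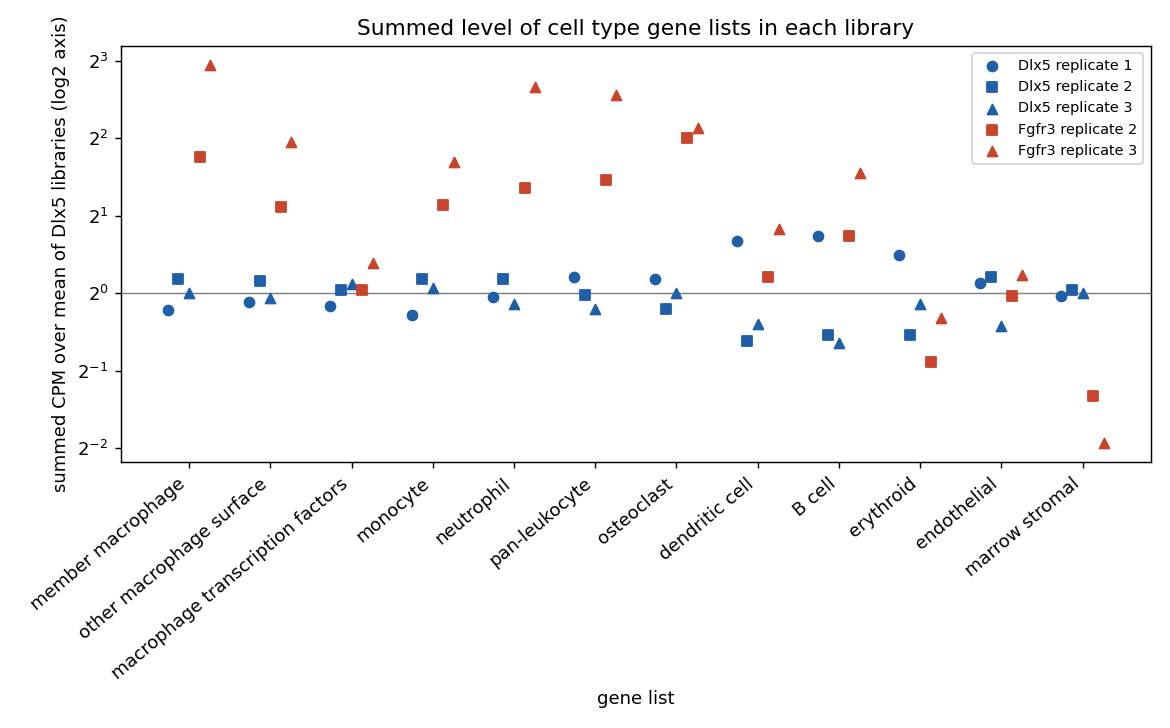
Summed CPM of each gene list in each library, divided by the mean of the 3 Dlx5-E12.5 libraries (log2 axis), with Dlx5-E12.5 in blue and Fgfr3-E12.5 in red. Macrophage, monocyte, neutrophil, pan-leukocyte and osteoclast lists lie above 1 in both Fgfr3-E12.5 libraries, and the marrow stromal list lies below 1 in both.

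Scaled to the pan-leukocyte genes, a choice made after seeing the data and given with no test, the macrophage genes fell into 3 patterns. Per 100 CPM of pan-leukocyte genes, *Lyz2* still stood higher in Fgfr3-E12.5 cells, at 36.7, 59.1 and 61.7 against 77.6 and 86.2 CPM. *Csf1r* overlapped, at 1.72, 2.58 and 1.96 against 2.63 and 1.97 CPM, as did *Cd68*, at 0.668, 1.68 and 1.41 against 1.60 and 1.07 CPM, and *Adgre1*, at 0.976, 2.05 and 1.28 against 1.02 and 0.522 CPM.

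The remaining 5 genes lay higher in every Dlx5-E12.5 library on this scale. *Cd14* was at 8.06, 9.36 and 11.2 against 3.76 and 4.40 CPM per 100 CPM. *C1qa* was at 1.57, 1.69 and 1.46 against 0.972 and 0.462, *C1qb* at 2.36, 3.70 and 2.38 against 1.62 and 1.17, and *C1qc* at 1.89, 3.33 and 2.68 against 1.77 and 1.16. *Mrc1* was the farthest apart, at 1.35, 2.04 and 1.39 against 0.362 and 0.0962 CPM per 100 CPM. The C1q chains thus stood higher in Fgfr3-E12.5 cells in CPM and lower relative to leukocyte RNA, and the same held per 100 CPM of neutrophil genes, where *Adgre1* also lay higher in every Dlx5-E12.5 library.

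**Figure D4:**
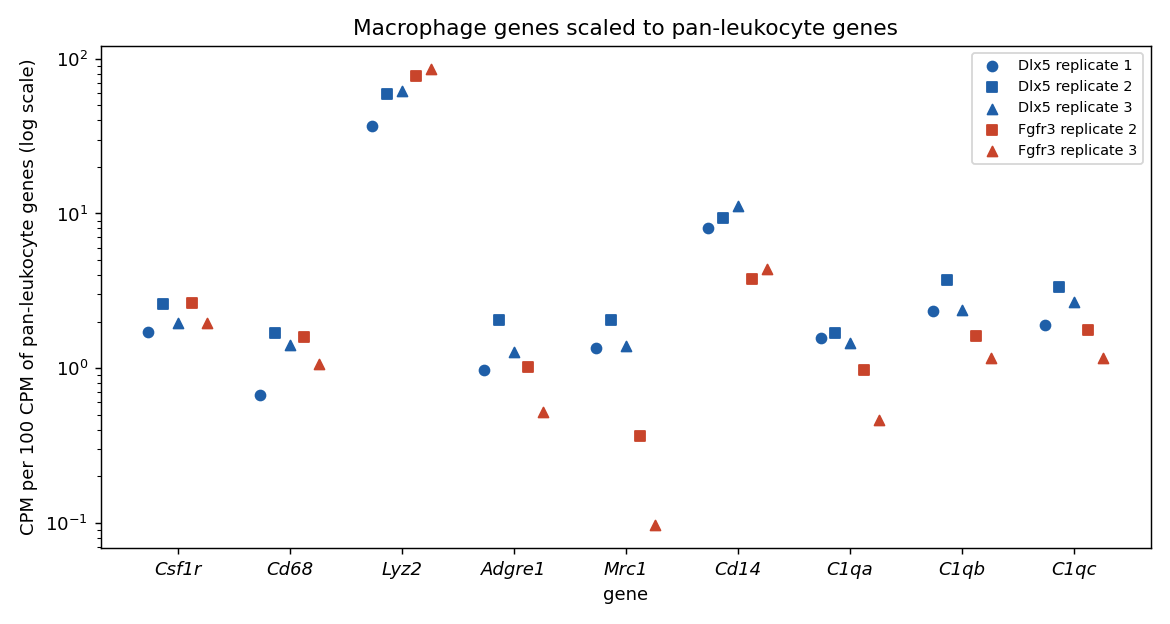
CPM of each macrophage gene per 100 CPM of the 14 summed pan-leukocyte genes (log axis), in 3 Dlx5-E12.5 libraries (blue) and 2 Fgfr3-E12.5 libraries (red). *Lyz2* alone has both Fgfr3-E12.5 libraries above all Dlx5-E12.5 libraries, and *Mrc1*, *Cd14* and the 3 C1q genes have both below, the reverse of their unscaled order except for *Mrc1*.

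The 2 Fgfr3-E12.5 libraries themselves differed in macrophage RNA. Replicate 3 exceeded replicate 2 in each of the 8 tested genes, by ratios of 2.50 for *Cd14*, 2.38 for *Lyz2*, 1.60 for *Csf1r*, 1.54 for *C1qb*, 1.43 for *Cd68* and 1.41 for *C1qc*, and by 1.09 and 1.02 for *Adgre1* and *C1qa*. Over all tested genes the median ratio was 0.99, and 48.5% were higher in replicate 3. *Mrc1* was lower in replicate 3, with a ratio of 0.568. All 14 pan-leukocyte genes were higher in replicate 3, with a median ratio of 2.11, while the summed marrow stromal genes had a ratio of 0.658. *Adgre1*, *C1qa* and *Mrc1* thus did not follow the leukocyte genes between these libraries, and *Cd14* and *Lyz2* did.

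**Figure D5:**
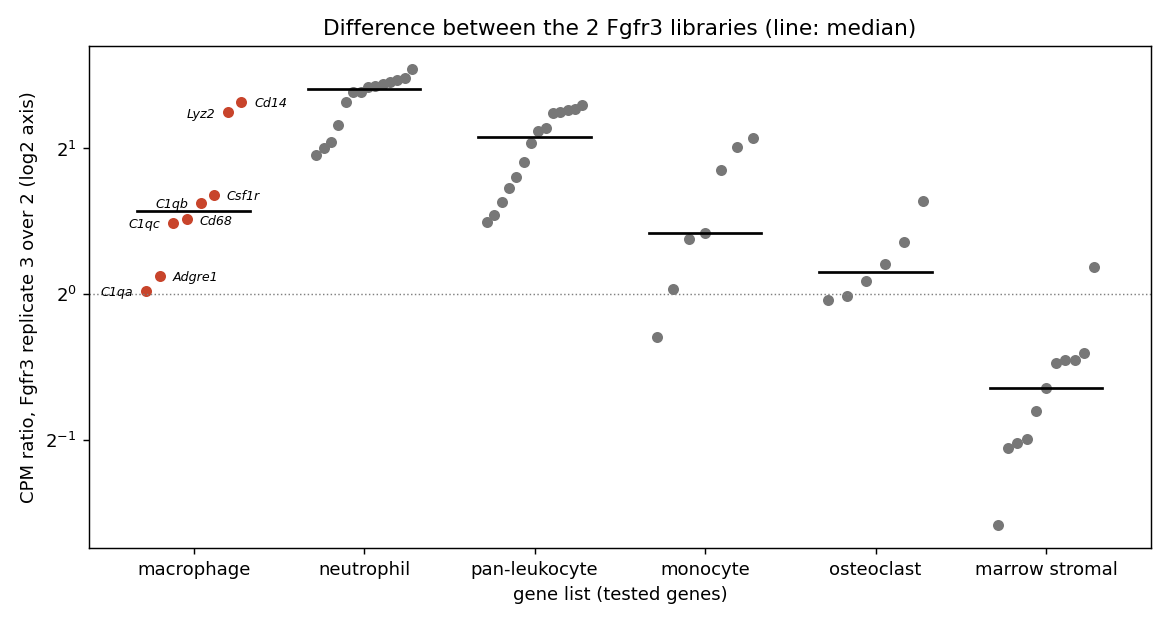
Ratio of CPM in Fgfr3-E12.5 replicate 3 to that in replicate 2 (log2 axis) for each tested gene of 6 lists, with the macrophage genes in red and named and black lines at the list medians. The macrophage genes spread from 1.02 for *C1qa* to 2.50 for *Cd14*, and the median of the pan-leukocyte genes is 2.11.

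Fitted without replicate 3 on the genes of the 5-library filter, with the lone Fgfr3-E12.5 library assumed to vary like the Dlx5-E12.5 ones, *Csf1r* (log2 fold change 1.80), *Cd68* (1.86) and *Lyz2* (2.06) were the 3 macrophage genes still called. Without replicate 2 the 6 called were *Csf1r* (2.48), *Cd68* (2.38), *Lyz2* (3.31), *Cd14* (1.46), *C1qb* (1.29) and *C1qc* (1.40). *Csf1r* and *Lyz2* were called in every fit run.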

How the data were processed

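RNA of 5 pools of sorted cells, 3 Dlx5-E12.5 and 2 Fgfr3-E12.5, was amplified with SMART-Seq v4 and made into Nextera XT libraries. The authors deposited raw counts for each gene on mm10, unnormalized, and these counts are the values used. The submitters' notes name TopHat2 2.0.13, Bowtie2 2.2.1 and HTSeq without roles. Depth-normalized and rlog values were not used here. Groups came from the labels.

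Symbols, gene types and coordinates were taken from GENCODE M21 (GRCm38), which held 29965 of the gene identifiers and lacked 76. The test took protein-coding genes and reporters whose CPM on total counts, without TMM scaling, reached 10 in 2 or more libraries. It was the quasi-likelihood test of edgeR 4.0.16 (R 4.3.3, TMM, no covariates) with Benjamini-Hochberg adjustment over all tested genes, and the SE is the log2 fold change over the root of its F statistic. The p-values and the SE rest on the spread between pools, and floors cover counting error only. The fit was tested on simulated data. No libraries agreed within sampling noise.

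The macrophage genes and the gene lists were chosen with earlier results of these data known. The text names all 9 genes in full and, per list, up to 4 called genes with the largest change, those called against the majority, and up to 3 uncalled genes with the highest mean. *Siglec1*, *Folr2*, *Timd4*, *Msr1*, *Trem2*, *Cx3cr1*, the uncalled genes of the lower filter, *Syk*, *Pik3cg*, *Igll1*, *Dcstamp*, *Ocstamp*, *Hmgxb3* and further genes of short lists were named after their values were seen. A few listed genes enter the counts and sums of their lists and are not reported here by name. Alternatives were DESeq2's size factors, library size alone, the exact test of edgeR, the Wald test of DESeq2 1.42.0, other filters and thresholds, a replicate block and each library left out. Scaling to leukocyte and neutrophil genes, and leaving out a Fgfr3-E12.5 library on the genes of the 5-library filter, were added after seeing the data. For values without a Fgfr3-E12.5 library, the passages on single macrophage genes used a filter rerun on the remaining libraries. Those on genes of the other lists kept the 5-library filter.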

Additional observations from a re-analysis of the deposited data

How the results depend on the processing

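*Csf1r* and *Lyz2* kept their calls in each refit, with log2 fold changes of 1.80 to 2.56 and 2.06 to 3.38. *Cd68*, which passed the filter through the Fgfr3-E12.5 libraries alone, lay at 1.86 to 2.42. Of 15 refits with unchanged thresholds, *Adgre1* lost its call in 7 (0.91 to 1.40, edgeR or DESeq2 adjusted p from 0.00491 to 0.107), *C1qb* in 6 (0.67 to 1.37) and *C1qc* in 2 (0.91 to 1.47). *Cd14* gained one in 3 (0.14 to 1.53). *C1qa* was not called in any of them, at 0.62 to 0.98. With each library left out in turn, 997 to 1680 genes and 2 to 6 macrophage genes were called higher in Fgfr3-E12.5 cells. The lowest values came without Fgfr3-E12.5 replicate 3, where the filter also dropped *Cd68*. With the 5-library filter kept, 3 macrophage genes were called there. Tested against a 2-fold change (edgeR's glmTreat), 1011 genes were higher in Fgfr3-E12.5 and 659 in Dlx5-E12.5 cells, with 3 macrophage genes among the former, and with no fold threshold the numbers were 2517 and 2363. The ratio of summed macrophage CPM moved from 5.56 to 2.24 without *Lyz2*. Per 100 CPM of pan-leukocyte genes the log2 ratio of mean levels turned to -0.89 for *Adgre1*, -1.01 for *C1qb*, -0.85 for *C1qc*, -1.23 for *Cd14* and -1.13 for *C1qa*, and per 100 CPM of neutrophil genes to -0.81, -0.97, -0.79, -1.22 and -1.10. On these scales *Csf1r* stood at 0.14 and 0.17, *Cd68* at 0.09 and 0.17 and *Lyz2* at 0.64 and 0.67. A replicate block gave 1678 and 1382 genes and 4 macrophage genes, without *Adgre1* (adjusted p = 0.0593) and *C1qb* (adjusted p = 0.0807). The shared numbers mark different pools, and deviations of same-numbered libraries correlated at 0.13 and -0.05. The deviations of the 2 Fgfr3-E12.5 libraries mirror each other, so this check cannot decide whether the numbers pair the samples. *Mrc1*, tested with no filter, stood at -1.03 (edgeR adjusted p = 0.0624).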

Other observations

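The tested genes whose levels over the 5 libraries were most like the mean profile of the 8 tested macrophage genes were *Prkch*, *Rccd1*, *Sirpa*, *Tfr2* and *Rassf4*, with root mean square differences of 0.0995, 0.103, 0.106, 0.109 and 0.146 on the log2 scale after centring. *Sirpa*, a receptor of myeloid cells, measured 27.3, 34.0 and 29.9 CPM in Dlx5-E12.5 and 72.1 and 118 CPM in Fgfr3-E12.5 libraries. *Tfr2*, a transferrin receptor of erythroid and liver cells, measured 11.1, 12.9 and 10.7 against 27.2 and 46.6 CPM. *Prkch*, a protein kinase C, measured 3.59, 4.90 and 3.70 against 11.3 and 14.7 CPM. *Prkch*, *Rccd1* and *Rassf4* passed the filter through the Fgfr3-E12.5 libraries alone, as *Cd68* in the mean profile did. Their likeness is thus partly set by the filter. The order within these libraries is a description over 5 points, in which lineage and sequencing cannot be told apart if the methods hold.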
